A study of Homo sapiens with 2 samples.

Results

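The MYC, MAX and MXD network is a set of transcription factors that pair with each other through a helix-loop-helix and leucine zipper region. Its 10 genes MYC, MYCN, MYCL, MAX, MXD1, MXD3, MXD4, MXI1, MNT and MLX were taken by name from the annotation, and all 10 had a row among the 57736 genes of the deposited tables. Poly(A)+ RNA of HEK293T cells was measured by RNA-Seq with 50 bp reads in 1 group of 2 replicates, labelled wild type and kidney, and grown in serum-containing medium without a stated treatment. HEK293T is an established human embryonic kidney line that carries the SV40 large T antigen, a viral protein that binds p53 and the retinoblastoma proteins. The labels do not say whether the replicates came from separate cultures, so differences between them measure only the spread between these libraries. With a single group no condition could be compared, and the comparisons were made between genes and between the replicates.

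MAX is the shared partner of the network. A MYC protein bound to MAX occupies the E-box, a short DNA element whose best known form is CACGTG, and activates genes for growth and division. The MXD proteins, MXI1 and MNT bind MAX in place of MYC, occupy the same element and recruit the SIN3 corepressor. MLX is a MAX-like protein that pairs with MLXIP and MLXIPL, the glucose-responsive factors, and also with MXD1, MXD4 and MNT. The MYC genes are known as oncogenes, MYC being driven in many tumours, MYCN in neuroblastoma and MYCL in small cell lung cancer.

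As the network acts through the E-box, its own promoters were read for the letters CACGTG, which spell the same on both strands and are one form of the wider E-box CANNTG. The table of RefSeq promoter windows used here held 12 windows for 9 of the 10 genes, all but MYC. In the 250 bases before the start, MXD4, MNT and MLX each held 1 copy and the other 6 genes held none. Of all 35116 windows of this length 6.34% held the letters, and so did 7.73% of the 27305 genes with a window. These matches describe letters only, and no binding was measured. The 3 windows are printed here in GRCh37, each on the strand of its gene, 5′ to 3′, up to the outermost start that the annotation gives, with CACGTG in capitals. They lie at chr4:2263837-2264086 for MXD4 (minus strand), chr17:2304399-2304604 for MNT (minus strand) and chr17:40718868-40719089 for MLX (plus strand). The element starts 238, 193 and 50 bases before the RefSeq start, respectively.
MXD4: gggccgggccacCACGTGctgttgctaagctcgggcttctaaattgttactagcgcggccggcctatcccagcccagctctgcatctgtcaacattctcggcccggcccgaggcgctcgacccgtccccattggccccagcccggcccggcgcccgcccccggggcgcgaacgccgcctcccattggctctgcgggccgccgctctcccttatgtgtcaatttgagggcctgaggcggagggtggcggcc
MNT: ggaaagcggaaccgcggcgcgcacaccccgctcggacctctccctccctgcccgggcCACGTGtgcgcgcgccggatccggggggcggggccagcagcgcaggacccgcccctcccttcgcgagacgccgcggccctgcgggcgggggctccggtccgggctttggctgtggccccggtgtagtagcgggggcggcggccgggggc
MLX: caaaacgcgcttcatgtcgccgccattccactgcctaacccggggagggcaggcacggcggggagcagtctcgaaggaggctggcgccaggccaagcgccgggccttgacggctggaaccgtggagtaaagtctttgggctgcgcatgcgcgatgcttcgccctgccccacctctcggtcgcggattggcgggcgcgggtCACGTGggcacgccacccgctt

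Levels are given in TPM, which corrects the reads of a gene for the length of its transcripts and has an equal sum in every library, so that genes can be set side by side. Detection required both replicates to reach a TPM of 1. By this threshold 9 of the 10 genes were detected, all but MYCN, whereas 27.7% of all rows and 63.7% of protein-coding genes were. The median of the 10 mean TPM values was 28.5, and that of the 9 detected genes was 36.2. The median of the 12345 detected protein-coding genes was 21.2. The libraries held 10593491 and 10104118 estimated counts (reads per gene, with a read that fits several genes shared out). An absence of reads was taken to allow up to 3 counts, an approximate limit equal to 0.283 and 0.297 CPM (CPM, counts scaled to the library total without regard to length). These limits cover counting error only, since PCR copies are not independent molecules.

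**Figure D1:**
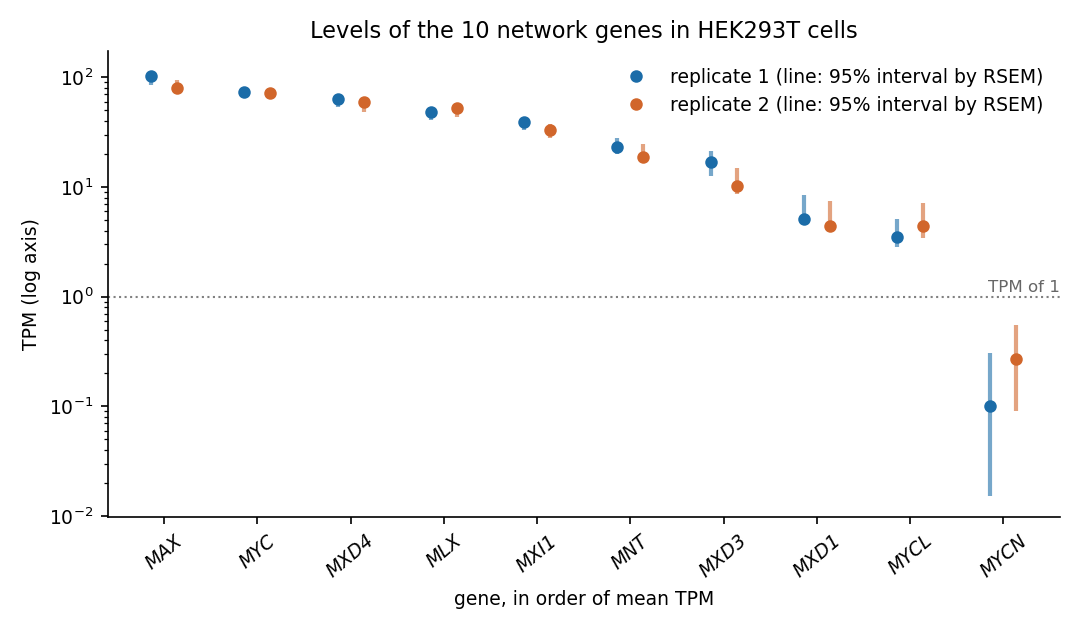
TPM of the 10 genes on a log axis in replicate 1 (blue) and replicate 2 (orange), in order of mean TPM, with the 95% interval that RSEM gave as a line. MAX lies highest at 103 and 80.5, and MYCN is the single gene below the dotted line at a TPM of 1, at 0.1 and 0.27.

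Of the MYC genes, MYC itself was by far the highest. MYC (ENSG00000136997, chromosome 8 from 128747680 to 128755197, plus strand, GRCh37) had a TPM of 73.7 in replicate 1 and 71.5 in replicate 2, a mean of 72.6 ± 1.54 (SD, n = 2). It lay above 84.1% of the detected protein-coding genes, at rank 1969 of 19391. Its estimated counts were 1170 and 1131, whole numbers with a posterior SD of 0 in both replicates, the posterior SD being the uncertainty that RSEM gives for reads shared between genes. MYC had the narrowest relative spread of the network, an SD of 2.12% of the mean, against a median of 6.62% over detected protein-coding genes.

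MYCL (ENSG00000116990, chromosome 1 from 40361100 to 40367928, minus strand) was low. It had a TPM of 3.52 and 4.43, a mean of 3.97 ± 0.643 (SD, n = 2), from 72.6 and 75 estimated counts, and lay above 13.8% of the detected protein-coding genes. MYC exceeded it 20.9-fold in replicate 1 and 16.2-fold in replicate 2. MYCN (ENSG00000134323, chromosome 2 from 16080672 to 16087129, plus strand) had 2 counts in replicate 1 and 5 in replicate 2, and an exact Poisson 95% interval of 0.242 to 7.22 and of 1.62 to 11.7 counts. With so few counts, the TPM of 0.1 and 0.27 is given for description. In summed TPM of the 3 MYC genes, MYC made up 95.3% in replicate 1 and 93.8% in replicate 2.

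MAX (ENSG00000125952, chromosome 14 from 65472892 to 65569413, minus strand) had the highest mean level of the network. Its TPM was 103 in replicate 1 and 80.5 in replicate 2, a mean of 91.7 ± 15.7 (SD, n = 2), above 88.0% of the detected protein-coding genes. Both values exceeded both values of MYC, by 1.39-fold in replicate 1 and 1.13-fold in replicate 2. The reads themselves were fewer for MAX, with 1002 and 856 estimated counts against 1170 and 1131 for MYC. The order in TPM therefore rested on length, the mean transcript length being 1356 and 1529 nt for MAX and 2176 and 2249 nt for MYC. MAX also has the most annotated transcripts of the network, 18 in the tables, from 327 to 3155 nt in the reference.

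Among the genes whose proteins compete with MYC for MAX, MXD4 led in both replicates. MXD4 (ENSG00000123933, chromosome 4 from 2249159 to 2263836, minus strand), a MXD protein known for quiescent and differentiating cells, had a TPM of 63.7 and 59.5, a mean of 61.6 ± 2.95 (SD, n = 2). Its 1177 and 1051 estimated counts were whole, with a posterior SD of at most 0.31 counts. It was 43.0% and 47.3% of the summed TPM of the 5 antagonists.

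MXI1 (ENSG00000119950, chromosome 10 from 111967363 to 112047123, plus strand), also called MXD2, came next. It had a TPM of 39.3 and 33.1, a mean of 36.2 ± 4.34 (SD, n = 2), from 407 and 394 estimated counts. MNT (ENSG00000070444, chromosome 17 from 2287367 to 2304398, minus strand), the largest antagonist and the one known as broadly expressed in growing cells, had 23.1 and 18.6, a mean of 20.9 ± 3.25 (SD, n = 2), from 575 and 484 counts. MNT had more counts than MXI1 in each replicate and a lower TPM, as its mean transcript length was 3379 and 3680 nt against 1439 and 1702 nt.

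The other antagonists were lower. MXD3 (ENSG00000213347, chromosome 5 from 176728462 to 176739758, minus strand), a MXD protein known from proliferating cells in S phase, had a TPM of 16.9 and 10.2, a mean of 13.6 ± 4.70 (SD, n = 2). Its SD was 34.6% of the mean, the widest of the detected genes of the network. MXD1 (ENSG00000059728, chromosome 2 from 70124820 to 70170077, plus strand), the founding MXD gene and one induced in differentiation, had 5.11 and 4.42, a mean of 4.77 ± 0.488 (SD, n = 2). Its 198 and 176 counts exceeded those of MXD3, 153 and 125, and its transcripts were longer, 5247 and 5587 nt on average against 1265 and 1747 nt. MXD4 exceeded MXD1 12.5-fold and 13.5-fold in TPM.

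MLX (ENSG00000108788, chromosome 17 from 40719090 to 40725257, plus strand) had a TPM of 47.8 and 52.3, a mean of 50.0 ± 3.19 (SD, n = 2), from 730 and 713 estimated counts. It was one of 3 genes of the network with a higher TPM in replicate 2, with MYCL and MYCN. MAX was above MLX by 2.15-fold and 1.54-fold. Of the genes related to MLX and MAX outside the 10, MLXIP, also called MondoA, had a TPM of 56.2 and 57.7, MGA, which also pairs with MAX, had 26.9 and 30.4, and MLXIPL, also called ChREBP, had 9.69 and 12.6. MLXIP lay above MLX in both replicates, and MLXIPL below it.

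The order of the 10 genes was read with 2 conditions for each pair of neighbours, that the replicate values did not overlap and that the RSEM 95% intervals did not overlap in either replicate. No p-value was attached, since an exact two-sided permutation test of 2 against 2 values cannot go below 0.333. Of the 9 neighbouring pairs, 4 met both conditions, which were MAX above MYC, MXI1 above MNT, MXD3 above MXD1, and MYCL above MYCN. The others were not separated. For MYC and MXD4 the replicate values kept apart but the intervals overlapped in replicate 1, where MXD4 reached 66.8 and MYC began at 64.5. MXD4 and MLX overlapped in replicate 2, MLX and MXI1 in replicate 1, and MNT and MXD3 in replicate 1. MXD1 and MYCL had values that interleaved, with 5.11 and 4.42 against 3.52 and 4.43, so their order is not given.

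The interval itself is uneven about some values. RSEM draws it around its posterior mean, which lay at 6.67 and 5.80 for MXD1 and at 69.0 and 67.3 for MYC. The TPM of MXD1 therefore lay close to the lower bound, 5.11 against 5.00 in replicate 1, and that of MYC close to the upper one, 73.7 against 73.8. All 10 genes had a TPM inside the interval in both replicates.

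Summed by role, the antagonists exceeded the MYC genes in both replicates. MXD1, MXD3, MXD4, MXI1 and MNT added up to a TPM of 148 and 126, a mean of 137 ± 15.7 (SD, n = 2), and MYC, MYCN and MYCL to 77.3 and 76.2, a mean of 76.8 ± 0.778 (SD, n = 2). The ratio was 1.91 in replicate 1 and 1.65 in replicate 2. The MYC genes held 20.6% and 22.8% of the TPM of the 10 genes, a mean of 21.7% ± 1.55 (SD, n = 2). MAX equalled 45.6% and 39.8% of the summed TPM of its partners among the 10, the MYC genes and the antagonists. These are amounts of RNA, and protein was not measured.

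**Figure D2:**
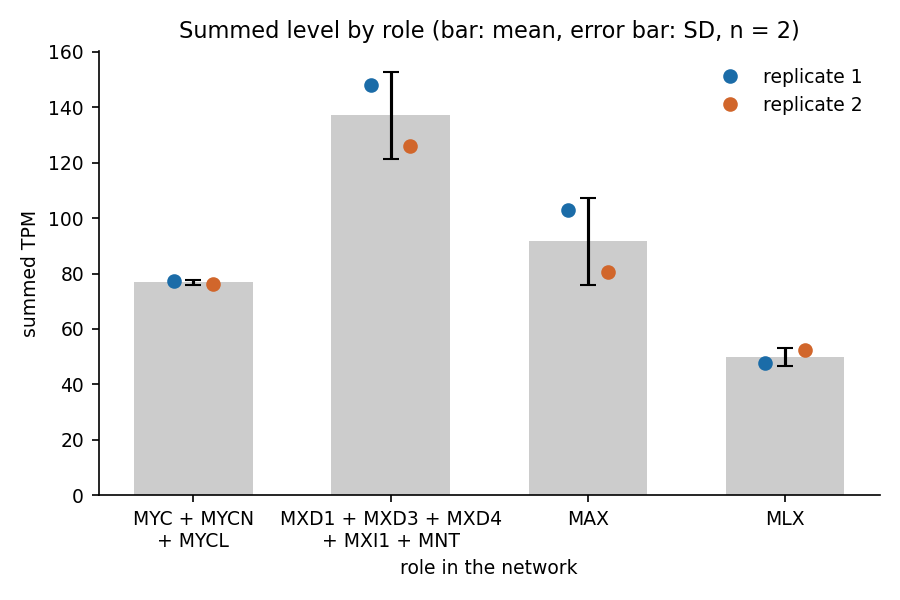
Summed TPM by role, with bars for the mean, error bars for the SD of 2 replicates and points for each replicate. The antagonists reach 148 and 126, the MYC genes 77.3 and 76.2, MAX 103 and 80.5 and MLX 47.8 and 52.3, and the replicates differ least in the MYC genes.

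The replicates were then compared gene by gene to learn how far the libraries differed. Rounded counts were compared by an exact binomial test, two-sided and relative to library sizes after TMM scaling. With Benjamini-Hochberg adjustment over the 17920 genes that reached 10 counts in sum, this binomial test called none of the 9 network genes tested at an adjusted p of 0.05. MYCN had too few counts. Over all genes tested 3.88% were called, which was 696 genes, and 280 were called with the posterior variance added and 217 by the edgeR negative binomial test. At an unadjusted binomial p under 0.05 MAX was the single gene of the network, with 13.3% of all genes tested below that value. The edgeR negative binomial test gave none. MAX had an unadjusted binomial p of 0.0274 and an adjusted p of 0.274, the lowest of the network, with CPM of 94.6 and 84.8, higher in replicate 1 by 1.12-fold. The next was MNT, with a p of 0.0567, an adjusted p of 0.397 and CPM of 54.3 and 47.9. MYC, with 110 and 112 CPM, had an adjusted p of 0.941 in the binomial test.

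**Figure D3:**
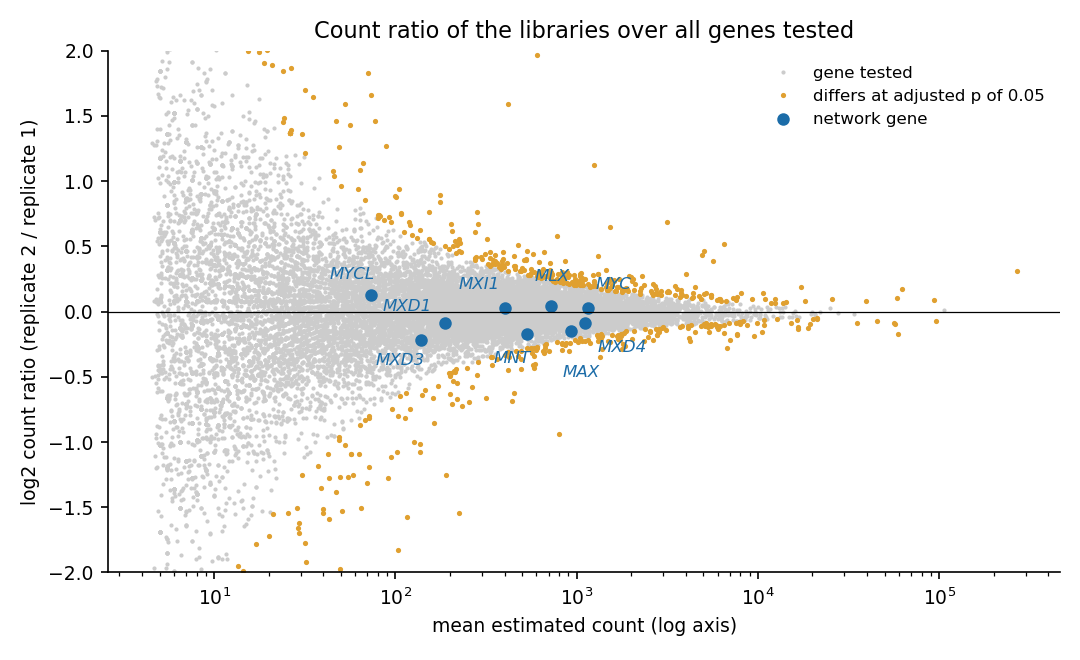
Log2 count ratio of replicate 2 over replicate 1 against the mean estimated count (log axis) for the 17920 genes tested, with genes called at an adjusted p of 0.05 in yellow and 9 network genes in blue. The network genes lie among the genes that were not called, and 235 genes fall outside the plotted range of 2 in either direction.

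TPM differed more between the replicates than the counts did. The 9 detected genes had a median absolute log2 difference of 0.25 in TPM (0.245) and of 0.10 in CPM (0.102). Over 10265 detected protein-coding genes with several transcripts and at least 50 counts in both replicates, these medians were 0.12 (0.122) and 0.08 (0.0839). TPM divides the counts by an effective length, the mean length of a gene's transcripts weighted by their estimated abundance, and this length changed between the replicates as well. Its median absolute log2 difference was 0.12 (0.125) in the network and 0.08 (0.0764) in the background.

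MXD3 showed the largest such shift. Its mean transcript length was 1265 nt in replicate 1 and 1747 nt in replicate 2, a 1.40-fold difference in effective length, and its transcripts in the reference run from 440 to 2279 nt. The CPM of 14.5 and 12.4 differed 1.17-fold, and the TPM 1.65-fold. MXI1 had nearly equal CPM, 38.4 and 39.0, and a 1.19-fold difference in length, so its TPM was higher in replicate 1 by 1.19-fold. For MAX the TPM differed 1.28-fold, the CPM 1.12-fold and the length 1.13-fold. MYCL and MLX went the other way, with a shorter length in replicate 2, 2406 against 2815 nt for MYCL and 1946 against 2095 nt for MLX. MYC and MXD4 were steady in both, their TPM being 1.03-fold and 1.07-fold higher in replicate 1.

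A shift in length by more than 1.2-fold was seen in 1 of the 9 genes (11.1%), MXD3, and in 12% of the background genes, a share near that of the network. Values of single transcripts were not analysed here, and whether transcript use or its estimation differed was not tested.

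**Figure D4:**
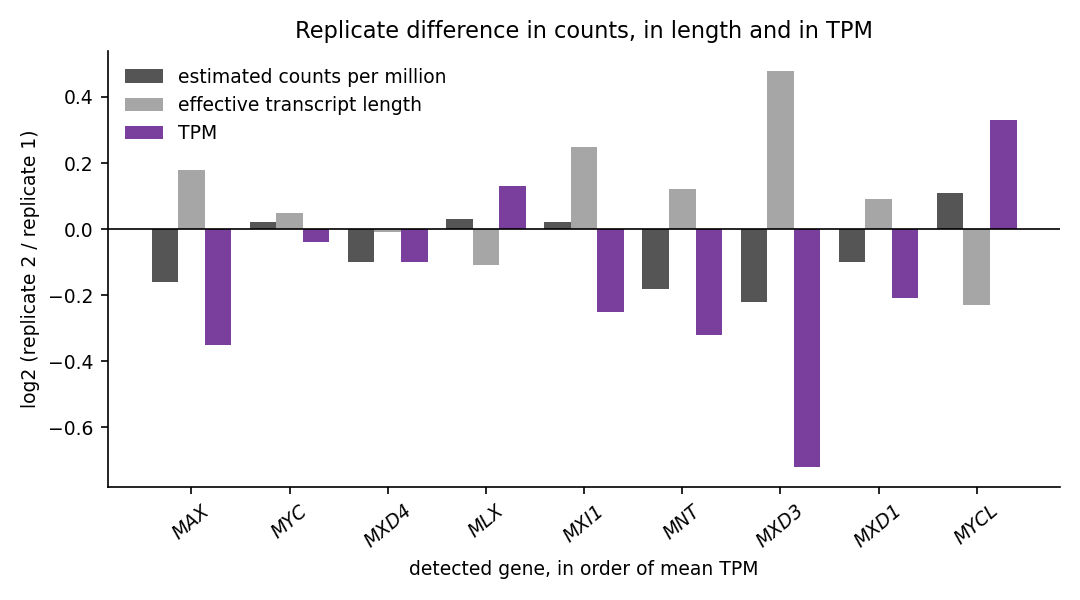
Log2 ratio of replicate 2 over replicate 1 in estimated CPM (dark grey), effective transcript length (light grey) and TPM (purple) for the 9 detected genes. For MXD3 the bars stand at -0.22, 0.48 and -0.72, and for MXI1 at 0.02, 0.25 and -0.25, the length differing more than the counts in both.

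Several genes of the network overlap other genes, and their values carry this limit. The strand setting of the counting was not stated. MXD3 overlaps PRELID1 on the opposite strand over 3151 bp, a gene with a TPM of 509 and 485, and RAB24 on its own strand over 2284 bp, with 24.9 and 23.1. The posterior SD of the MXD3 counts was 9.43 and 7.84, or 6.15% and 6.27% of the counts, the highest share in the network. MNT followed, with 1.91% and 2.11%, and overlaps an antisense lncRNA, ENSG00000262456, with a TPM of 2.82 and 2.87. MLX, with 1.23% and 1.47%, overlaps PSMC3IP on the opposite strand over 930 bp, with 38.8 and 36.0.

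The overlaps of the remaining genes were with low genes or came with a small posterior SD. This SD covers only reads shared between annotated genes, and the origin of the other reads was not tested. MAX overlaps FNTB on the opposite strand, at a TPM of 15.4 and 20.3, and CHURC1-FNTB, at 11.8 and 8.56, yet the posterior SD of its counts was under 1 (0.93 and 0.84). MXD1 overlaps SNRNP27 over 7888 bp on the same strand, with a TPM of 61.8 and 55.1, and had whole counts. Of the neighbouring noncoding genes, CASC11, which overlaps MYC, MYCNOS, which overlaps MYCN, and MYCNUT had 0 counts in both replicates, which allows up to 3 counts each. MYCL-AS1 had 1.39 and 0. PVT1, the lncRNA gene near MYC that is often co-amplified with it, had a TPM of 13.9 and 13.7. MYCLOS was not analysed here.

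Other genes of the pathway were read from 8 lists by function. Of 84 genes listed 83 had a row and 78 were detected (94.0%), beside 63.7% of all protein-coding genes. Of the 78 tested 2 (2.56%) differed between the libraries by the binomial test, beside 3.88% of all genes tested. Both were among the 20 activated targets tested and higher in replicate 1. Of these 20, 6 had an unadjusted binomial p under 0.05, as had 12 of the 78 and 13.3% of all genes tested. NCL, for nucleolin, had 17910 and 15503 counts with an adjusted p of 8.23e-14 in the binomial test, a 1.09-fold difference, and FBL, for fibrillarin, had 3196 and 2793 with an adjusted p of 0.0482, a 1.08-fold difference. At counts of this size a small difference passes the test, which allows for the sampling of reads alone. Over all genes the edgeR negative binomial test called 217 against 696, and its calls for NCL and FBL are not reported here.

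All 12 genes listed as corepressors, among them subunits of the SIN3 complex that MXD proteins and MNT recruit, were detected. The median of their mean TPM was 86.1. RBBP4, RBBP7 and HDAC2 were highest with a TPM of 382 ± 4.11, 336 ± 24.5 and 243 ± 8.51 (SD, n = 2), the first pair being histone-binding subunits shared by several deacetylase complexes. SIN3A, the scaffold that binds the MXD proteins, had 64.0 and 66.4, and its relative SIN3B had 41.8 and 41.5. SUDS3, ARID4A and SAP30, further subunits of the SIN3 complex, were lowest with mean TPM values of 34.0, 20.2 and 16.9.

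The 14 coactivators and cofactors of MYC were also all detected, with a median of 54.2. RUVBL1, BPTF and RUVBL2 were highest at mean TPM values of 140, 118 and 118, and EP300, EP400 and ZBTB17 lowest at 40.7, 21.6 and 12.9. ZBTB17, also called MIZ1, is the partner through which MYC is known to repress genes. All 13 genes for turnover and phosphorylation of MYC were detected, with a median of 52.7. HUWE1 and STUB1 were highest at mean TPM values of 172 and 142, and PPP2R5A, FBXW7 and FBXO32 lowest at 20.0, 13.9 and 5.50. FBXW7 is the ubiquitin ligase subunit that recognises phosphorylated MYC, and it had 15.4 and 12.4.

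Genes that MYC is known to activate or repress are given by their levels, beside the median TPM of 21.2 over detected protein-coding genes. All 20 activated targets were detected with a median of 298. NPM1, PTMA and NCL were highest with a TPM of 3366 ± 143, 2268 ± 103 and 1482 ± 58.4 (SD, n = 2), and CCND2, POLR1B and TERT lowest with mean values of 67.3, 58.4 and 5.06. Of 8 repressed targets 7 were detected, and the median of all 8 was 11.9. NDRG1 was highest at 31.6 ± 2.25 (SD, n = 2), above the median of detected protein-coding genes, followed by NDRG2 at 19.2 and CDKN1B at 17.3. The levels of the lists overlapped, with the mean TPM of TERT below that of 7 of the 8 repressed targets. THBS1 was lowest with 5 and 4 counts, CDKN1A had a TPM of 7.67 and 5.81, and CDKN2B had 6.65 and 6.96. The lists hold abundant housekeeping products on one side, MYC was not changed in these cells, and no test of regulation was possible.

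The other E-box factors with the same kind of dimerization region gave a scale for the network. Of 9 such genes 8 were detected, and the median was 39.8, above the 28.5 of the 10 network genes. USF2 was highest with a TPM of 85.3 and 82.1, between the 2 values of MAX, followed by SREBF2 with 46.7 and 47.5, TFAP4 with 45.7 and 40.5 and USF1 with 41.3 and 44.8. SREBF1 had 43.0 and 36.6, TFE3 26.3 and 22.8, MITF 6.32 and 5.18 and TFEB 3.15 and 5.07. TFEC had 0 and 1 count.

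**Figure D5:**
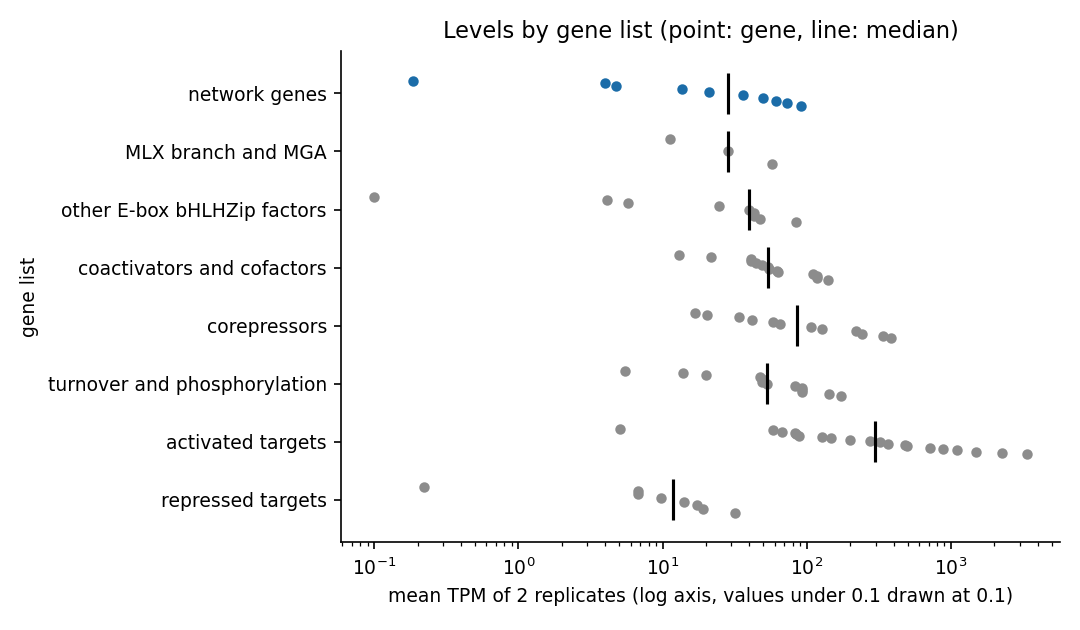
Mean TPM of 2 replicates on a log axis for each gene (point) of the network and of 7 lists of related genes, with the median of each list as a line and values under 0.1 drawn at 0.1. The activated targets have the highest median, 298, the repressed targets the lowest, 11.9, and the network genes lie at 28.5.

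Markers were read as a check of the cells. Of 4 genes for embryonic kidney and neural state with a row, VIM, UCHL1, NEFM and PAX2, all were detected, with mean TPM values of 338, 253, 10.5 and 3.41. Of the kidney tubule genes, UMOD, AQP2 and SLC34A1 had 0 counts in both replicates and SLC12A1 had 1 and 2, so defining markers of mature tubules were not detected at this depth. Of 5 genes for other cell types COL1A1, at 8.88, and EPCAM, at 1.26, were detected, PTPRC had 1 count in each replicate, and CD3E and ALB had 0. LHX1, NEFL and PECAM1 were not analysed here.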

How the data were processed

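RNA-Seq of 2 HEK293T replicates was analysed. Per the submitters' processing notes, the authors trimmed reads with Trimmomatic 0.36, aligned them with STAR 2.6.1c to hg19 (GRCh37.p13) and quantified genes with RSEM 1.3.1. The study's methods name featureCounts with Ensembl release 87 instead, and the columns are those of RSEM. Estimated counts per gene, TPM and FPKM were deposited by the authors, as were the posterior SD and the interval bounds, read here as scores. A table deposited for the whole series held the authors' values for pooled reads.

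Gene symbols and positions were read from the GRCh37 version of GENCODE 44 (96.1% of 57736 identifiers matched), and promoter windows from RefSeq (GRCh38.p14), placed in GRCh37 by exact match. Of 79 transcripts of the network 78 were matched by ID, and their lengths are those of the reference. Counts were rounded and tested with scipy 1.17.1 after TMM scaling by edgeR 4.0.16 in R 4.3.3. The edgeR negative binomial test used the common dispersion of both libraries, 0.00206. Count ratios in the plot used 0.5 added counts. The binomial and edgeR tests were tried on counts simulated under their own assumptions, which does not show that these hold for these libraries. The normal test was not tried in this way.

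Genes, lists and tests were chosen with earlier results of these data known. Beyond the 10 genes and their overlapping genes, the 3 highest and 3 lowest of each list, every gene of lists of up to 9 and every gene that differed could be named, and some genes of these lists are not reported here. SIN3A, SIN3B and FBXW7 were named for their roles after their values were seen. Alternatives were other thresholds, units, scalings, filters and tests, and leaving out each replicate.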

Additional observations from a re-analysis of the deposited data

How the results depend on the processing

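The number of network genes detected was 7 to 10, and that of pathway genes 76 to 78, under all thresholds, on FPKM and without either replicate. No network gene was called by the binomial test under 2 other scalings and 2 other filters. None was called by the normal test of the log count ratio with the posterior variance added, or by the edgeR negative binomial test. The edgeR test takes its dispersion from the libraries it compares, so its lack of calls is a weak check. The lowest adjusted p, that of MAX, ranged from 0.15 (0.150) to 0.433 in the variants of the binomial test, and by the edgeR test the lowest was 1 (MXD1). At an unadjusted p under 0.05 MNT joined MAX with RLE or total-count scaling. Over all genes 280 differed by the normal test and 217 by the edgeR test, against 696, and 506 to 752 under the other settings.

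The log2 ratio of MAX to MYC was 0.32 in TPM and reversed to -0.31 in estimated counts, which are not scaled by length. On the other scales and without either replicate it was 0.17 to 0.48. The share held by the MYC genes was 23.4% of estimated counts, against 21.7% of TPM, and 20.6% to 22.8% otherwise. With 1 effective length per gene, a setting chosen after seeing the data, these values were 0.32 and 21.7%. In the pooled table the counts of the 10 genes differed from the sum of the replicates by at most 7.99, for MLX. No paired analysis was possible because there is 1 group. A test between the libraries needs both, so it could not be run without a replicate.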
